A study of Mus musculus with 8 samples.

Results

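The mesenchyme of the newborn mouse inner ear was compared with 3 other sorted cell types across all measured genes. It was taken as the 2 libraries whose labels give mesenchyme as the cell type, 1 from the cochlea and 1 from the vestibular organs, out of 8 mRNA-seq libraries in all. The other 6 libraries, 1 from each organ, were labelled epithelial (hair cells and supporting cells), neurons and vascular endothelium. All animals were ICR mice, an outbred strain, at postnatal day 0, with no treatment or mutant allele given. Cells were separated by flow cytometry with antibodies to CD326, CD49f and CD34, the products of Epcam, Itga6 and Cd34, and which combination defined which cell type was not found in the labels or methods. The values are a signal for each of 15275 genes. Every library holds the same set of values, of which 20 is the lowest and is called the floor, so a value says where a gene ranks within its library. Depth and counting error are unknown, and so is whether the values were divided by gene length. Levels are therefore read between libraries for 1 gene, and no order between genes is drawn from them. Where signals are summed over several genes, the genes with the highest signal weigh most. Since the libraries hold sorted bulk RNA, fewer cells of a type and less RNA per cell cannot be told apart.

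The otic mesenchyme surrounds the epithelial labyrinth and gives rise to the fibrocytes of the spiral ligament, the fibrous tissue under the vestibular epithelia, the lining of the fluid spaces and much of the bony capsule. Its fibrocytes recycle potassium between the fluids of the inner ear and deposit a matrix rich in collagens. It signals to the epithelium through transcription factor programmes that include POU3F4 and TBX18, and loss of Pou3f4 causes deafness in mice and humans. Blood vessels run through the tissue, and pigment cells lie against it in the stria vascularis and under the vestibular dark cells.

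The 3 genes used as mesenchyme markers were all highest in the mesenchyme of both organs. Pou3f4 (chrX:110814280-110817207, plus strand, GRCm38), a POU domain transcription factor, had signals of 5381 and 5579.6 in cochlear and vestibular mesenchyme, against 67.6 and 64.3 in epithelial cells, 190.1 and 580 in neurons and 57.6 and 333.5 in vascular endothelium, the cochlea being given first in each pair. Its lower mesenchyme value was 9.28-fold above the highest of the other 6. Tbx18 (chr9:87702800-87731260, minus strand), a T-box factor of mesenchymal progenitors, had signals of 16109 and 22463 in mesenchyme, against 254 and 309 in epithelial cells, 452 and 1758 in neurons and 121 and 1273 in vascular endothelium. Again no other library came within 9.16-fold of either mesenchyme library. Otor (chr2:143078473-143081713, plus strand), which encodes the secreted protein otoraplin, stood at 109100 in both mesenchyme libraries, the same rank in each, against 1992 and 2508 in epithelial cells, 2283 and 16808 in neurons and 408 and 10201 in vascular endothelium. In all 3 genes the vestibular neuron library was the next highest and the vestibular endothelium library came after it, while cochlear endothelium was far lower. In the model described next, mesenchyme exceeded the mean of the other 3 cell types on the log2 scale by 5.24 ± 0.62 (SE, adjusted p = 0.0355) for Pou3f4, by 5.37 ± 0.69 (SE, adjusted p = 0.0397) for Tbx18 and by 5.16 ± 1.04 (SE, adjusted p = 0.0754) for Otor, the last of which missed the threshold. Here and below, ± gives the SE, and the adjusted p is the Benjamini-Hochberg value over all 15275 genes. These genes were chosen as markers, so their direction is a check of the labels and not a finding.

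**Figure D1:**
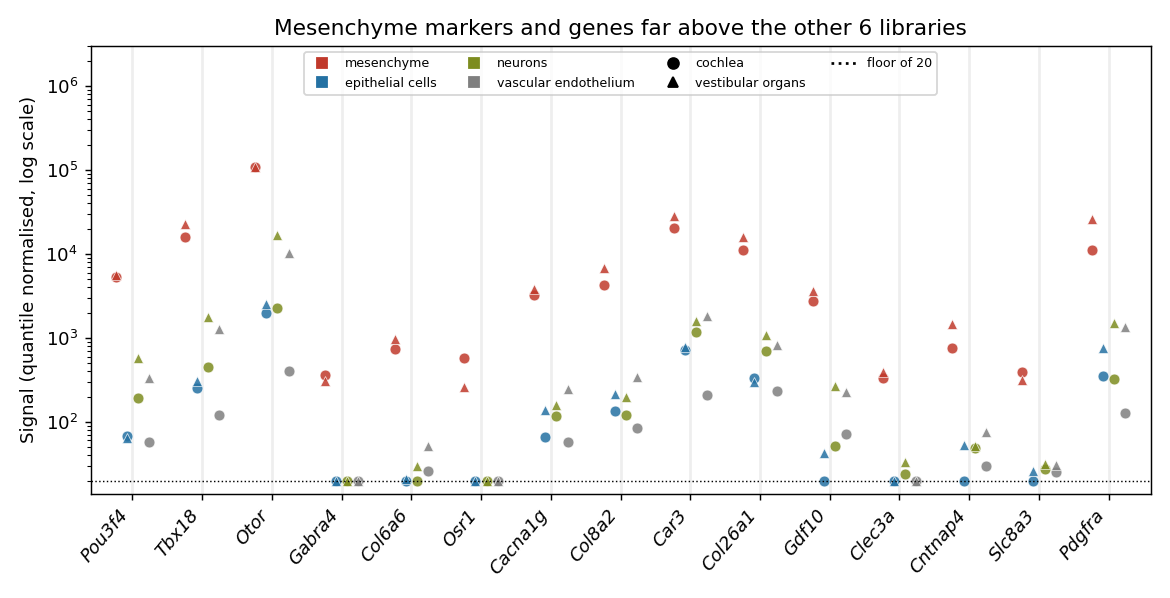
Signal (vertical log axis, quantile normalised, floor of 20 dotted) of the 3 marker genes and of 12 genes far above the other libraries, 1 point per library, with circles for the cochlea and triangles for the vestibular organs. Mesenchyme (red) is the highest cell type for every gene shown, Gabra4 and Osr1 are at the floor in all 6 other libraries, and for Otor the vestibular neuron and vestibular endothelium libraries come next.

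The antigens used for sorting were read in the same way. Itga6 (chr2:71745616-71858416), the integrin alpha 6 chain carrying CD49f, had signals of 514 and 265 in mesenchyme, against 4308 and 3515.5 in epithelial cells, 28444 and 18735 in neurons and 10282 and 7999 in vascular endothelium. Both mesenchyme libraries were the lowest of all 8, by at least 6.84-fold, and the log2 difference was -4.66 ± 0.20 (SE, adjusted p = 0.0122). Epcam, the epithelial adhesion molecule CD326, had 43.6 and 153 in mesenchyme against 14252.5 and 21678 in epithelial cells, and Cd34, a sialomucin of endothelial and progenitor cells, had 227 and 226 against 40862 and 22463 in vascular endothelium. Neither difference passed the test over all 3 other cell types (adjusted p = 0.0995 and 0.266). Because these proteins steered the sort, their values describe the fractions and are not results about the tissue.

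Some of the other libraries held markers of several cell types. The vestibular neuron and vestibular endothelium libraries had intermediate levels of mesenchymal genes: over the 105 genes of the gap analysis below that lay more than 4-fold above all 6 other libraries, red cell genes left out, the median signal was 976.9 and 1226 in cochlear and vestibular mesenchyme, 106 in vestibular neurons and 125.5 in vestibular endothelium, and 27.6 to 59.8 in the other 4 libraries. Epcam was 865 and 987 in them and 44.8 and 62.9 in their cochlear counterparts. Without them, Otor was 43.5-fold above the next library instead of 6.49-fold, Tbx18 35.6-fold instead of 9.16-fold, and Pou3f4 28.3-fold instead of 9.28-fold. Tubb3, neuronal tubulin, had 469 and 36.9 in the neuron libraries, against 51.6 and 24.6 in epithelial cells and 152 and 30.6 in mesenchyme. Fabp7, a fatty acid binding protein of glia, which the neuron label does not name, had 32734.5 and 42828 in them, against 419.9 and 1972 in mesenchyme. In the mesenchyme libraries the summed signal of the defining markers was 5795 and 5152 for 6 epithelial genes against 40708 and 72012.0 in epithelial cells and 872.0 and 886 for 4 endothelial genes against 152719 and 79941 in endothelium. The epithelial sum was thus below that of the epithelial libraries, but above the 361.5 to 3576 of the neuron and endothelium libraries. Most of it was 1 gene, Cdh1, with 5623 and 4094 in cochlear and vestibular mesenchyme, so the sum does not describe the epithelial markers as a group. The endothelial sum was within the 473 to 6710 of the epithelial and neuron libraries.

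Log2 signal was fitted gene by gene in limma with terms for cell type and for organ, and mesenchyme was set against the average of the other 3 cell types at an adjusted p of 0.05. The cochlear and the vestibular library of a cell type served as its 2 samples, so the p-values rest on how far the contrast between cell types differed between organs, with 3 residual degrees of freedom, and no library had a replicate of its own cell type and organ. Mesenchyme was higher for 269 genes (1.76% of those tested) and lower for 228 (1.49%), while 3194 genes had an unadjusted p under 0.05. A gene past the adjusted threshold is said to be called. The median difference over all genes was -0.02. All 269 differences above and all 228 below had the same sign in the cochlea alone and in the vestibular organs alone. A call needs a difference that is large beside how far differences between cell types vary between organs. This agreement therefore follows largely from the selection and is no separate evidence. The counts depended on the libraries used. Without the cochlear neurons, without the vestibular neurons, or without the vestibular neuron and vestibular endothelium libraries together, the limma model called 0 genes, although 2807, 2594 and 3930 genes then had an unadjusted p under 0.05, so each call named below was lost in those fits. The calls higher and lower were 60 and 1 without cochlear mesenchyme, 56 and 0 without vestibular mesenchyme, 109 and 303 without cochlear epithelial cells, 64 and 181 without vestibular epithelial cells, 149 and 226 without cochlear endothelium and 243 and 383 without vestibular endothelium. All 497 genes kept their sign in each of these fits. With the floor subtracted before the log, which widens differences from values near the floor, 243 genes were higher and 281 lower, of which 185 and 164 were among the calls above. Of the 76 called genes named here, 21 lost the call in that fit, at an adjusted p from 0.0504 for Erbb3 to 0.17 for Prrx2: Acan, Alas2, Cntnap4, Col24a1, Cspg4, Emilin1, Emilin2, Fbn1, Foxd1, Kcnk2, Krt19, Mlana, Mrc1, Rab25, Rspo1, Slc5a7, Tbx3, Trpm1 and Wif1 were the others.

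A second description, without a model, asked for genes whose 2 mesenchyme libraries both lay above or both lay below the other 6. Mesenchyme lay above all 6 for 1165 genes (7.63%) and below all 6 for 614 (4.02%). With 2 against 6 libraries a single gene cannot reach p = 0.05 in a two-sided exact permutation test, so no p is attached to these. Among the 1165 genes, 252 had also been called higher, and 59 were at the floor in all 6 other libraries. The gap exceeded 4-fold for 111 genes (0.727%) above and for 17 genes (0.111%) below. Of the 111, 91 were called, 27 were on the lists of mesenchymal and matrix genes below, 6 were globin or red cell genes and 12 were at the floor elsewhere. The 10 mesenchymal and matrix lists held 289 measured genes, of which 41 were called higher (14.2%, beside 1.76% of all genes), 0 lower, and 86 lay above all 6 (29.8%, beside 7.63%). In the same limma fit 141 of them were higher and 23 lower at an unadjusted p under 0.05, beside 3194 of all 15275 genes in both directions together. The lists were written with earlier results of this table known, so these shares are a description. Each list count below is to be read beside the shares of all genes: 1.76% called higher, 1.49% called lower and 7.63% above all 6. For unadjusted counts it is 3194 of 15275 genes. In 63 of the 111 the next highest library was vestibular endothelium or vestibular neurons, and without those libraries 182 genes were more than 4-fold above, including all 111. Leaving libraries out can only keep or widen a gap, so all 111 had to remain and the count could not fall.

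Within its own organ, mesenchyme was the highest of 4 libraries for 2811 genes (18.4%) in the cochlea and for 4095 (26.8%) in the vestibular organs, and for 1520 (9.95%) in both. It was the lowest in both organs for 844 genes (5.53%). Against the mean of the other 3 libraries of the organ, 4309 genes (28.2%) were higher in both organs and 5010 (32.8%) lower in both. The 2 mesenchyme libraries had a Spearman correlation of 0.965 across genes, next to 0.960 for the epithelial, 0.922 for the neuron and 0.877 for the endothelium pair, and 264 genes differed more than 4-fold between them, against 419, 729 and 1415 in those pairs. Genes are not independent replicates, so these correlations are descriptions. The mesenchyme pair was the most alike of the 4 by both measures, although the median absolute log2 difference was 0.275 in it and 0.241 in the epithelial pair. Its correlations with the other 6 libraries were between 0.788 and 0.875, the highest with cochlear neurons.

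**Figure D2:**
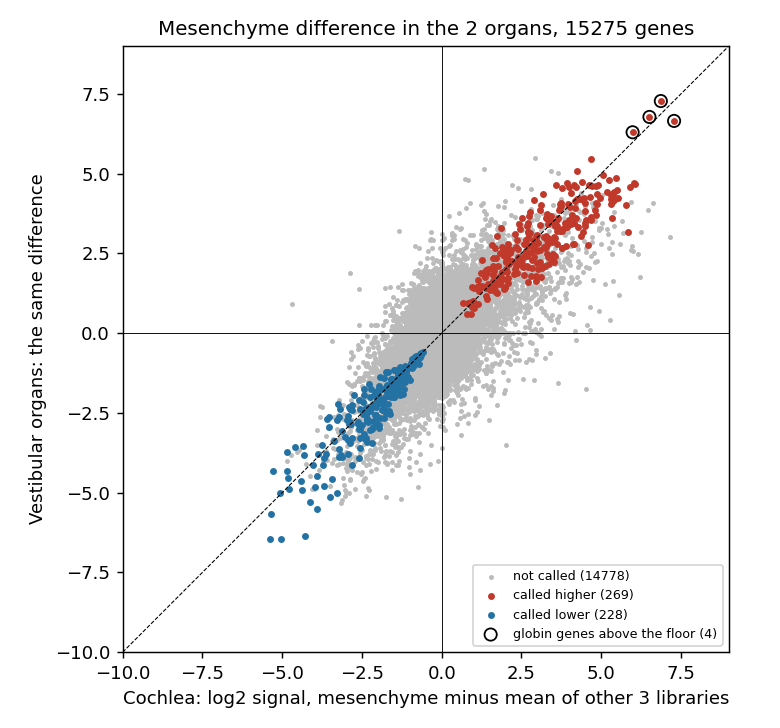
Each point is a gene, with the log2 difference between mesenchyme and the mean of the other 3 libraries of the same organ in the cochlea (horizontal) and in the vestibular organs (vertical); the dashed line marks equal differences. The 269 genes called higher (red) and the 228 called lower (blue) lie along the diagonal, and the 4 globin genes above the floor (rings) lie at its upper end. The place of the called genes follows largely from their selection, since a call needs differences between cell types that vary little between organs.

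Other genes with a wide gap between mesenchyme and the next library, the globin and red cell genes left out, are given here one by one with their known roles. Gabra4 (chr5:71569749-71658308), a subunit of the GABA-A receptor, had 364 and 304 in mesenchyme and the floor of 20 in all 6 others, at least 15.2-fold lower. Osr1 (chr12:9570116-9581500), a zinc finger factor of embryonic connective tissue, likewise had 576.5 and 261 and the floor elsewhere, at least 13-fold lower. In both genes, then, mesenchyme was the only cell type with a value above the floor in this table. Cacna1g, the T-type calcium channel alpha subunit Cav3.1, had 3231 and 3789 against 65.8 and 139 in epithelial cells, 117 and 158.5 in neurons and 57.1 and 249 in vascular endothelium, and the log2 difference was 4.92 ± 0.46 (SE, adjusted p = 0.0274). Slc8a3, a sodium-calcium exchanger, had 396.5 and 313 against 20 to 31.9 in the other 6, and Slc5a7, the high-affinity choline transporter, had 968 and 1226 against 20 to 111. All 3 transport genes were called, at 3.73 for Slc8a3 (adjusted p = 0.0178) and 5.17 for Slc5a7 (adjusted p = 0.0303). Cntnap4, a contactin-associated membrane protein described mainly in neurons, had 749 and 1468 against 20 to 75.1, and the cell adhesion gene Clmp, listed here under the older name 9030425E11Rik, had 4514 and 4171 against 75 to 384. Although Cntnap4 is best known from neurons, the neuron libraries had 48.6 and 51.9, far below mesenchyme. Given the Tubb3 and Fabp7 values of those libraries above, this says little about neurons themselves. Clec3a, a C-type lectin known from cartilage, had 328 and 391 against 20 to 32.9 (adjusted p = 0.0122).

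Signals and receptors of the mesenchyme list gave 6 of 61 measured members higher and 0 lower, 14 above all 6 other libraries, and a median difference of 0.73. Gdf10, a secreted member of the TGF-beta family, had 2712.5 and 3586.5 in mesenchyme against 20 and 43.1 in epithelial cells, 52.1 and 266 in neurons and 70.9 and 224 in vascular endothelium. It was 10.2-fold above the next library and differed by 5.36 ± 0.46 (SE, adjusted p = 0.0274). Pdgfra, the receptor that marks fibroblast progenitors, had 11166 and 25882 against 356 and 768 in epithelial cells, 323 and 1514 in neurons and 129 and 1363 in vascular endothelium, with a difference of 4.99 ± 0.51 (SE, adjusted p = 0.0287). Its relative Pdgfrb, also known from pericytes, had 7824 and 9218.5 in mesenchyme and 3305 and 3938.5 in neurons, so mesenchyme led by less than for Pdgfra (1.99-fold over the highest other library, log2 difference 3.80 ± 0.51, adjusted p = 0.0424). The chemokine Cxcl12 was shared with endothelium, with 5316 and 7806 in mesenchyme and 4396.5 and 3789 in vascular endothelium, and passed at 2.52 ± 0.35 (SE, adjusted p = 0.044). Wif1, a secreted WNT inhibitor, had 1545 and 12458.5 against 43.4 to 811 in the others (log2 difference 4.32 ± 0.60, adjusted p = 0.0445), and Rspo1, a secreted WNT agonist, had 74.9 and 48.4 in mesenchyme against 20 to 31.5, at or near the floor, (log2 difference 1.48 ± 0.19, adjusted p = 0.0406). Bmp5, a bone morphogenetic protein, was 3.76-fold above every other library at 2314 and 2612 but did not pass (adjusted p = 0.0994), with 615 in vestibular neurons. The members with the lowest differences were high in the epithelium: Sema3c, a secreted semaphorin, had 160.5 and 158 in mesenchyme against 4113 and 3639 in epithelial cells and 3296 and 3313 in neurons, and Slit3, a guidance ligand, had 363 and 136 against 8224.5 and 5487 in epithelial cells. Neither passed (adjusted p = 0.0578 and 0.149). Fgf10, a ligand often placed in mesenchyme in other organs, had 117 and 20 in mesenchyme and 2584 and 1600.3 in epithelial cells here (adjusted p = 0.325).

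Transcription factors linked to mesenchyme gave 12 of 46 measured members higher and 0 lower, and 18 above all 6 other libraries, with a median difference of 1.67. The list was written with earlier results of this table known and includes the markers Pou3f4 and Tbx18. Twist1, a bHLH factor of cranial mesenchyme, had 1557 and 1461 in mesenchyme against 22.1 and 21.5 in epithelial cells, 71.5 and 191 in neurons and 39.5 and 125.5 in vascular endothelium, a difference of 4.74 ± 0.50 (SE, adjusted p = 0.0298). Twist2 had 319 and 616.5 and was at the floor in 5 of the other 6, with 44.1 in vestibular endothelium (log2 difference 4.28 ± 0.32, adjusted p = 0.0257). Zic2, a zinc finger factor, had 5898 and 6974.5 against 71.6 and 100 in epithelial cells, 177 and 534 in neurons and 1490.4 and 961 in vascular endothelium, so its next highest library was cochlear endothelium (log2 difference 4.35 ± 0.45, adjusted p = 0.0287). Creb3l1, which drives collagen secretion in osteoblasts, had 1582 and 2016 against 61.4 to 165 in the others (log2 difference 3.91 ± 0.41, adjusted p = 0.029). Osr2, Foxd1, Prrx2 and Foxc2, all factors of embryonic mesenchyme, also passed, with log2 differences of 3.32, 3.21, 3.16 and 3.45. Nfatc4 had the smallest called difference of the list at 1.75, with 2280.1 and 1986 in mesenchyme and 1499 and 1728 in epithelial cells. Prrx1 and Foxc1 missed the threshold and had high values in another library: Prrx1, with 2261 and 3329.5 in mesenchyme, had 2154 in vestibular neurons and 149.8 in cochlear neurons (adjusted p = 0.0889), and Foxc1, with 5250.3 and 6785, had 2725.5 and 1747 in vascular endothelium (adjusted p = 0.0572).

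Collagens had a median difference of 2.67, against -0.02 for all genes, the highest of the lists with more than 6 genes, with 8 of 23 higher, 0 lower and 10 above all 6 other libraries. The members called included 3 chains of collagen VI, which forms beaded microfibrils, and the network-forming Col8a2. Col6a6 had 734 and 974 in mesenchyme against 20 to 51.3 in the others (log2 difference 5.01 ± 0.26, adjusted p = 0.0147), Col6a1 had 4069 and 10119 against 126 to 623 (log2 difference 4.66 ± 0.21, adjusted p = 0.0122) and Col6a2 had 4446 and 9677 against 139 to 743 (log2 difference 4.21 ± 0.42, adjusted p = 0.028). Col8a2, a chain of collagen VIII, had 4231 and 6822 against 134 and 215.5 in epithelial cells, 122 and 198.5 in neurons and 84.9 and 344 in vascular endothelium, 12.3-fold above the next (log2 difference 5.02 ± 0.36, adjusted p = 0.0252). Col26a1, listed as Emid2, had 11288 and 16109 against 230.3 to 1071 (log2 difference 4.78 ± 0.41, adjusted p = 0.0274), and Col12a1, a collagen that decorates fibrils, had 9553 and 9823 against 339 to 1856 (log2 difference 3.49 ± 0.20, adjusted p = 0.0178). Col24a1 and Col13a1 completed the 8, at 4.47 and 3.21. The major fibrillar chains were not called. Col1a2 had 147260 in each mesenchyme library, against 11376 and 10282 in epithelial cells, 42828 and 33586 in neurons and 1242 and 7702 in vascular endothelium. Both mesenchyme libraries lay above all 6 others, but the gene missed the threshold (log2 difference 3.77 ± 0.73, adjusted p = 0.0701). It passed in limma with a filter at a signal of 100 (adjusted p = 0.0174) and with median-ratio scaling (adjusted p = 0.0416). Col3a1 had 74990.4 and 58437.5 in mesenchyme and 147260 and 64474 in neurons, and Col1a1 had 5559.5 and 6364 in mesenchyme and 9050.3 and 7404 in neurons, so for both chains the neuron library was the higher one in each organ. Col2a1, the main chain of cartilage collagen, had the same value, 203006, in both mesenchyme and both epithelial libraries, so those ranks were equal.

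The genes that process and cross-link collagens gave 3 of 26 higher, 0 lower and 10 above all 6, with a median of 0.94. Loxl1, a lysyl oxidase that cross-links elastin, had 3912 and 6331 against 1307 and 1176.5 in epithelial cells, 124 and 279.5 in neurons and 75.9 and 351 in vascular endothelium (log2 difference 3.89 ± 0.48, adjusted p = 0.0377). Pcolce, the procollagen C-proteinase enhancer, had 3003 and 5999 against 296 to 1257.5 (log2 difference 2.78 ± 0.37, adjusted p = 0.0424), and the prolyl 3-hydroxylase gene P3h3, listed as Leprel2, had 4058 and 6370.3 against 426 to 1775 (log2 difference 2.40 ± 0.34, adjusted p = 0.0455). Lox, the founding lysyl oxidase, was 7.49-fold above every other library at 5698 and 5259.9 but had an adjusted p of 0.0771. Elastic fibre and glycoprotein genes gave 4 of 39 higher, 0 lower and 12 above all 6 (median 1.30). Emilin2, an elastic fibre interface protein, had 4182.5 and 1471 against 57.5 to 211 (log2 difference 4.51 ± 0.67, adjusted p = 0.0467) and Emilin1 had 6754 and 10027.5 against 79 to 1801 (log2 difference 4.17 ± 0.59, adjusted p = 0.0455). Fbn1, which builds microfibrils, had 6598 and 10397.5 against 494 to 3423 (log2 difference 2.73 ± 0.40, adjusted p = 0.0463), and Aebp1 passed at 1.26 although cochlear neurons, at 1842, lay between its mesenchyme values of 2082 and 1652.5.

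No small leucine-rich proteoglycan and no basement membrane gene passed in limma, while at an unadjusted p under 0.05 8 proteoglycans were higher and 1 lower, and 5 basement membrane genes were higher and 4 lower. Of all 15275 genes, 3194 had such a p in the same fit, in both directions together. Bgn and Lamc3 passed in limma with a filter at a signal of 100 and with median-ratio scaling. Of 18 measured proteoglycans 6 were above all 6 other libraries, with a median of 1.33. Dcn, decorin, had 10092 and 21678 against 4502 and 1305.5 in epithelial cells, 2428.5 and 4957.5 in neurons and 129 and 1366.5 in vascular endothelium, and Bgn, biglycan, had 11696.5 and 16184 against 254 to 10319, with adjusted p of 0.161 and 0.0557. Epyc went the other way, with 489 and 435 in mesenchyme against 82226 and 19190.1 in epithelial cells (adjusted p = 0.41). Of 23 basement membrane genes Lamc3 alone lay above all 6, at 781 and 300 against 22.4 to 196, and the median was -0.21. Col4a1, the main chain of vascular basement membranes, had 27889 and 31166.5 in mesenchyme and 203006 and 30702 in vascular endothelium (adjusted p = 0.84). The difference between lists was not tested.

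Cartilage and bone genes gave 4 of 29 higher, 0 lower and 8 above all 6, with a median of 1.83. Acan, the cartilage proteoglycan aggrecan, had 646 and 676 in mesenchyme against 20 and 20 in epithelial cells, 27.8 and 34.4 in neurons and 20 and 99.8 in vascular endothelium (log2 difference 4.45 ± 0.55, adjusted p = 0.0372). Ibsp, bone sialoprotein, had 269.5 and 383 against 20 to 34.4, and Dmp1, a matrix protein of osteocytes, had 158 and 167.5 with the floor in all 6 others, at least 7.92-fold lower. Phex, an endopeptidase of bone-forming cells, had 204 and 90.3 with the floor elsewhere. The 3 bone genes were called at adjusted p of 0.0178, 0.0122 and 0.0294. Runx2 and Sp7, the factors that specify osteoblasts, were above all 6, with 249 and 266 for Runx2 and 172 and 153 for Sp7 in mesenchyme, but did not pass (adjusted p = 0.068 and 0.0535). Cartilage collagens were shared with the epithelium: Col9a1 had 61524 and 64474 in mesenchyme and 32734.5 and 67384.5 in epithelial cells, and Col11a2 had 28444 and 58899 in mesenchyme and 38939 and 40862 in epithelial cells. For both chains the values of the cell types overlapped.

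Genes of fibrocytes, the ion-transporting connective tissue cells of the spiral ligament and vestibule, gave 4 of 24 higher, 0 lower and 7 above all 6 (median 1.29). Coch, which encodes cochlin, the most abundant protein of the ligament, had 12861 and 82226 in mesenchyme against 337 and 2002 in epithelial cells, 867 and 8709 in neurons and 116 and 3849.5 in vascular endothelium. Vestibular mesenchyme was far above cochlear mesenchyme, yet both exceeded every other library, the nearest being vestibular neurons, and the difference was 4.82 ± 0.55 (SE, adjusted p = 0.0325). Car3, a carbonic anhydrase, had 20314 and 28444 against 209 to 1843 (log2 difference 4.80 ± 0.66, adjusted p = 0.0438), and the potassium channel gene Kcnk2 had 506 and 694 against 20 to 76.8 (log2 difference 3.76 ± 0.43, adjusted p = 0.0329). Aqp1, a water channel of both fibrocytes and red cells, had 11919 and 12587 against 219 to 1413 (log2 difference 4.48 ± 0.54, adjusted p = 0.0363), which is counted under both lists. Crym, a thyroid hormone binding protein, was 3.85-fold above the others at 20579 and 5966 (adjusted p = 0.0793). The connexin genes Gjb2 and Gjb6, mutated in human deafness, were shared with epithelium, at 3624 and 9553 in mesenchyme against 9512 and 2565 in epithelial cells for Gjb2 and at 554 and 3324 against 896 and 1005 for Gjb6. Otos, otospiralin of the adult ligament, had 20 and 22.1 in mesenchyme, and the floor in the other 6 libraries. None of 9 thyroid hormone genes and none of 17 retinoid genes passed in limma, against 5 and 4 higher and 1 lower of each at an unadjusted p under 0.05, and 4 of each were above all 6: Dio2, the enzyme that activates thyroid hormone, had 211 and 292 in mesenchyme against 20 to 173, and Rarb, a retinoic acid receptor, had 2704 and 1206 against 79.5 to 596 (adjusted p = 0.0553 and 0.108). Dio2 passed with a filter at a signal of 100 and with median-ratio scaling, and Rarb with the filter.

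**Figure D3:**
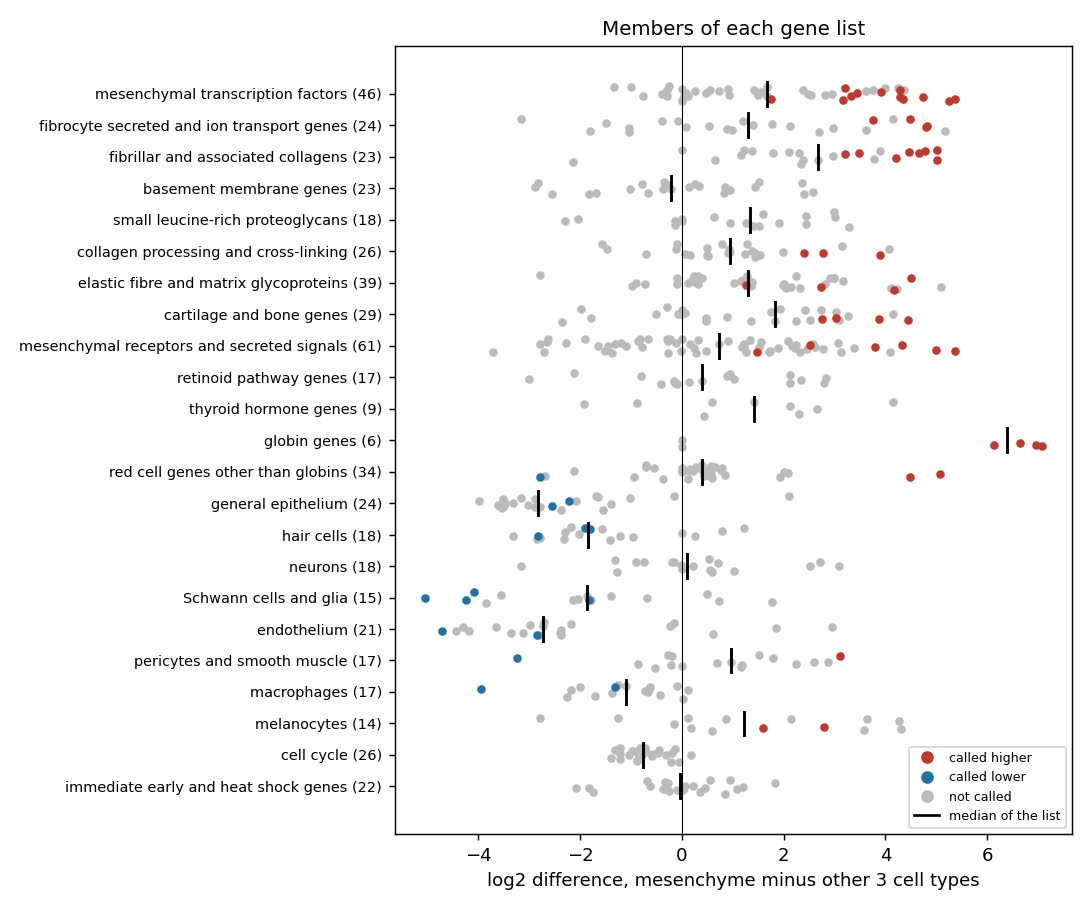
Log2 difference between mesenchyme and the mean of the other 3 cell types (horizontal) for each measured member of 23 gene lists, red where called higher, blue where called lower and grey where not called, with the median of each list as a black bar and the number of members in parentheses. Among lists of more than 6 genes, collagens have the highest median, 2.67, and the epithelial list the lowest, -2.83.

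Genes with a wide gap below the other libraries are also given one by one. The largest gap below all 6 belonged to Adgrg1, an adhesion receptor listed as Gpr56, with 28.5 and 53.3 in mesenchyme against 467 and 786.5 in epithelial cells, 744 and 499.5 in neurons and 938 and 639.8 in vascular endothelium, at least 8.77-fold lower (log2 difference -4.08 ± 0.43, adjusted p = 0.0294). Npr3, the natriuretic peptide clearance receptor, had 56.4 and 37.4 against 396 and 1535 in epithelial cells, 14318.5 and 10466 in neurons and 1094.5 and 2130.4 in vascular endothelium (log2 difference -5.73 ± 0.58, adjusted p = 0.0283), and Podxl, a sialomucin of endothelial and epithelial surfaces, had 50.1 and 49.6 against 1433 and 6364 in epithelial cells, 291 and 1624 in neurons and 21162 and 7721 in vascular endothelium (log2 difference -5.90 ± 0.87, adjusted p = 0.0467). Each was expressed in every other library, though Npr3 was highest in neurons and Podxl in endothelium. Sox2, a factor of sensory progenitors and glia, had 20 and 29.8 in mesenchyme, at or near the floor, against 1439 and 2679.8 in epithelial cells and 4249 and 3065 in neurons (log2 difference -5.51 ± 0.54, adjusted p = 0.0277). Tbx3, a T-box repressor, had 20 and 78.1 against 479 to 4582 (log2 difference -4.68 ± 0.56, adjusted p = 0.0358), the opposite direction to Tbx18 of the same family. Trim25, a ubiquitin ligase of antiviral signalling, had 61.5 and 87.3 against 545.5 to 2326.5 (log2 difference -3.84 ± 0.17, adjusted p = 0.0122), Mfsd2a, a lysolipid transporter, had 46.5 and 68.1 against 453 to 2345 (log2 difference -4.06 ± 0.32, adjusted p = 0.027), and Rgcc, listed as 1190002H23Rik, had 35.9 and 66.1 against 402 to 4505 (log2 difference -4.81 ± 0.41, adjusted p = 0.0274). Pvr, a nectin-like adhesion receptor, Ptpre, a receptor tyrosine phosphatase, and Srgap1, a GTPase activator of SLIT-ROBO signalling, also had both mesenchyme libraries below all 6 and were called, at -3.42, -4.16 and -3.14, and Sh3tc2, a Schwann cell trafficking protein, had the same order with an adjusted p of 0.0591.

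The wider lists of other cell types had mostly negative differences in mesenchyme. The mean of the other cell types includes the fractions where epithelial, hair cell, glial and endothelial genes are high. Negative differences are therefore largely built in for those lists. Over all genes 1.76% were called higher and 1.49% lower. Of 24 general epithelial genes 2 were called lower and 0 higher, with a median of -2.83: Krt19, a keratin, and Rab25, an epithelial trafficking GTPase, were at the floor of 20 in both mesenchyme libraries. No gene of this list had both mesenchyme libraries below all 6 others. Cdh1, E-cadherin, was the 1 member above the mean of the other libraries in both organs, with 5623 and 4094 in mesenchyme against 8612.5 and 6832 in epithelial cells and 440.3 and 963 in neurons (difference 2.10, adjusted p = 0.163). Of 18 hair cell genes 3 were lower, among them the transcription factor Pou4f3, at the floor in mesenchyme against 811 and 1934 in epithelial cells, and the median was -1.85. Of 15 Schwann cell and glial genes 4 were lower (median -1.86), among them Erbb3, a neuregulin receptor of Schwann cells, with 271.5 and 156.5 in mesenchyme against 25882 and 17510 in neurons. Of 21 endothelial genes 2 were lower (median -2.74), and the endothelial cadherin Cdh5 had 122 and 255 in mesenchyme against 67384.5 and 28959.6 in vascular endothelium. Emcn, an endothelial sialomucin, had 7000.5 and 2399.8 in mesenchyme against 6264 and 9195 in vascular endothelium and 45.9 and 54.1 in epithelial cells (difference 2.95, adjusted p = 0.139). None of 18 neuronal genes passed in limma (3 higher and 1 lower at an unadjusted p under 0.05, beside 3194 of all 15275 genes in both directions together), and the median was 0.10.

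Of 17 pericyte and smooth muscle genes 1 was called higher and 1 lower, where 1.76% and 1.49% of all genes were. The median was 0.97, with 1.56 in the cochlea and 0.25 in the vestibular organs. At an unadjusted p under 0.05, 6 were higher and 1 lower, and 8 were above and 3 below the mean of the other 3 libraries in both organs. Cspg4, the NG2 proteoglycan, had 1063 and 1395 in mesenchyme and 1595 and 1472 in neurons against 20 and 55.6 in epithelial cells and 39.3 and 75.6 in endothelium (log2 difference 3.11 ± 0.40, adjusted p = 0.0397). Mcam was lower, at 656 and 732 against 3259.6 to 16184 (log2 difference -3.23 ± 0.48, adjusted p = 0.0463), and Rgs5, a pericyte gene, had 3700.5 and 5381 in mesenchyme and 147260 in vestibular neurons. No pericyte gene had both mesenchyme libraries above all 6 others, although 3 were above the 4 left without the vestibular neuron and vestibular endothelium libraries. Over all 15275 genes, 1165 were above all 6 and 1546 above those 4. Of 17 macrophage genes 2 were lower and 0 higher: Mrc1 had 20 and 45.3 against 192 to 947 and Spi1, listed as Sfpi1, was at the floor in mesenchyme. None of 26 cell cycle genes and none of 22 immediate early and heat shock genes passed in limma (medians -0.77 and -0.04), with 0 higher and 3 lower, and 2 higher and 1 lower, at an unadjusted p under 0.05. The cell cycle median was -0.18 in the cochlea and -1.25 in the vestibular organs, and 17 of the 26 genes were below the mean of the other 3 libraries in both.

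Some melanocyte genes were highest in mesenchyme as well. Of 14 measured genes 2 were called higher, 0 lower and 6 lay above all 6 other libraries, with a median of 1.23. The shares of all genes were 1.76%, 1.49% and 7.63% in that order. Trpm1, a channel of pigment cells, had 149.9 and 155 in mesenchyme, 34.3 in vestibular neurons and the floor in the other 5 (log2 difference 2.80 ± 0.21, adjusted p = 0.0257), and Mlana had 61.5 and 66.1 with 27.8 in vestibular neurons and the floor in the other 5 (log2 difference 1.59 ± 0.14, adjusted p = 0.0274). Tyr, the tyrosinase that starts melanin synthesis, had 1843 and 883 against 20 and 73.1 in epithelial cells, 44 and 457 in neurons and 20 and 119 in vascular endothelium, and Dct, which acts later in that pathway, had 10562 and 5603 against 133 and 794 in epithelial cells, 502 and 1479.9 in neurons and 77.6 and 672 in vascular endothelium. Pmel, the melanosome fibril protein, had 4136.5 and 3325 against 144 to 843. These 3 were highest in mesenchyme in each organ but missed the threshold (adjusted p = 0.0867, 0.0722 and 0.0573). Of the 5 defining pigment genes, these 3 and Mlana were above all 6 other libraries, and Tyrp1 had 80.9 and 616 in mesenchyme and 321.5 in vestibular neurons. The summed signal of the 5 was 16684 and 10493 in cochlear and vestibular mesenchyme and 281 to 3129 in the other 6 libraries, and none of the 5 was at the floor in both mesenchyme libraries. Over all 14 genes, some of which Schwann cells share, the sum was highest in neurons, at 0.76% and 0.703% of the library's signal against 0.146% and 0.0996% in mesenchyme. The part of pigment cells in the differences of other genes was not tested.

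With all 8 libraries, the 4 adult globin genes had the 4 largest log2 differences of the whole table. The globin chains are the oxygen carriers of red cells, and the adult alpha and beta chains each come from a pair of adjacent copies. Hba-a2 (chr11:32296489-32297298) had 37970.1 and 74990.4 in cochlear and vestibular mesenchyme, against 85.9 and 123 in epithelial cells, 133 and 930.5 in neurons and 3013 and 999.8 in vascular endothelium. Hbb-b1 (chr7:103826534-103828096, annotated as Hbb-bs) had 40862 and 67384.5 against 94.4 and 128 in epithelial cells, 141 and 1387 in neurons and 1361 and 1702 in vascular endothelium, a gap of 24-fold that was the largest of all 15275 genes with all 8 libraries. Without the vestibular neuron and vestibular endothelium libraries 29 genes instead of 1 had a gap over 16-fold, and Hbb-b1 then came below Otor (43.5-fold), Gdf10 (38.3-fold), Slc5a7 (37.5-fold) and Tbx18 (35.6-fold). Hba-a1 had 6991 and 18173 against 20 and 20 in epithelial cells, 33.9 and 431 in neurons and 666 and 530 in vascular endothelium, and Hbb-b2, annotated as Hbb-bt, had 2307 and 5669 against 20 and 20 in epithelial cells, 20 and 62.3 in neurons and 121.5 and 302 in vascular endothelium. In all 4 genes vestibular mesenchyme was above cochlear mesenchyme, both were above the other 6, and no library was below epithelial cells. The log2 differences were 7.07 ± 0.85 (SE, adjusted p = 0.0363) for Hba-a2, 6.97 ± 0.67 (SE, adjusted p = 0.0274) for Hbb-b1, 6.64 ± 0.87 (SE, adjusted p = 0.0403) for Hba-a1 and 6.14 ± 0.43 (SE, adjusted p = 0.0226) for Hbb-b2. The embryonic chains Hba-x and Hbb-y were at the floor in all 8 libraries. Together the globins made up 0.553% and 1.04% of the summed signal in cochlear and vestibular mesenchyme and at most 0.0327% in any other library.

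The upstream windows of the 4 listed globin genes are shown because these genes had the largest differences, and those of Otor and Tbx18 for comparison. Each is the 120 bases before the RefSeq start (GRCm38.p6), with matches on either strand to the CCAAT box, to the TATA box core TATAA and to the CACCC box in capitals. Hba-a1 and Hba-a2 lie on the plus strand of chromosome 11, Hbb-bs and Hbb-bt on the minus strand of chromosome 7, Otor on the plus strand of chromosome 2 and Tbx18 on the minus strand of chromosome 9.
Hba-a1 (chr11:32283552-32283671): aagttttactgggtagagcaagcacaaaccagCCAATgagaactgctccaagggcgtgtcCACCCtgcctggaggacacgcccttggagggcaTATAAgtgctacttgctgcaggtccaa
Hba-a2 (chr11:32296372-32296491): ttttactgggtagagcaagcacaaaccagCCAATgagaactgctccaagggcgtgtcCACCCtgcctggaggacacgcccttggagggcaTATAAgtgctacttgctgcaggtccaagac
Hbb-bs (chr7:103827929-103828048): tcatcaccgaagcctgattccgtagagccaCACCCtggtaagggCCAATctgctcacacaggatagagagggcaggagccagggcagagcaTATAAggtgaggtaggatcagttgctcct
Hbb-bt (chr7:103813924-103814043): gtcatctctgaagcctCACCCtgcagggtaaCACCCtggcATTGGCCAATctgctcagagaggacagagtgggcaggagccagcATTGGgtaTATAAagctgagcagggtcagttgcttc
Otor (chr2:143078273-143078392): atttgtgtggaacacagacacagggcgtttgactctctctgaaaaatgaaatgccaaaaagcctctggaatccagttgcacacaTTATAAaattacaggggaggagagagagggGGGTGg
Tbx18 (chr9:87731261-87731380): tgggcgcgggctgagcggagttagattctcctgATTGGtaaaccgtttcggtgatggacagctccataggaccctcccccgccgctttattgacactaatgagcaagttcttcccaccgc
The alpha windows were identical over 117 of 117 bases when shifted by 3, and the beta windows over 88 of 119. All 4 globin windows held all 3 motifs, with the TATA core starting 27 to 30 bases before the start. Of 11634 genes of the table with a window of this length, 27.6% held the CCAAT box, 7% the TATA box core and 40.2% the CACCC box. The Otor window held the TATA box core and a CACCC match, and the Tbx18 window a CCAAT match alone. Among the 72 genes with a window that were more than 4-fold above all 6 libraries, red cell genes left out, the shares in that order were 25%, 12.5% and 52.8%, and among the 44 more than 2-fold below all 6 they were 38.6%, 15.9% and 59.1%. A match to such short strings is a description and no binding site. The windows end before the start and say nothing of the transcripts, whose identity was not computed here. The paired copies are known to have closely similar transcripts, so how the signal is divided between Hba-a1 and Hba-a2, and between Hbb-b1 and Hbb-b2, is uncertain.

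Of 34 measured red cell genes other than globins, 2 were called higher and 1 lower, where 1.76% and 1.49% of all genes were, and 7 were above all 6 other libraries, where 7.63% of all genes were. The median difference was 0.39, and 9 were higher and 4 lower at an unadjusted p under 0.05 in limma, where 3194 of all 15275 genes passed in either direction. Alas2, the red cell enzyme that starts haem synthesis, had 1404 and 3533 in mesenchyme against 20 and 20 in epithelial cells, 24.6 and 133 in neurons and 326 and 200 in vascular endothelium (log2 difference 5.07 ± 0.70, adjusted p = 0.0435), the same order of libraries as Hba-a1. The other call was Aqp1, which fibrocytes also express. Slc4a1, the anion exchanger of the red cell membrane, had only 28.5 and 56.6 against 49.6 in cochlear endothelium, and Klf1, the erythroid factor, was at the floor in all 8 libraries. Tal1, a transcription factor of blood stem cells, was at the floor in mesenchyme and had 1681 and 1341 in endothelium. Tfrc, the transferrin receptor of red cell precursors, had 673 and 733 in mesenchyme, the lowest of the 8 libraries but only just under the next. The call downward was Epb4.9, a membrane skeleton gene, at 39.1 and 24.1 against 57.3 to 944 (log2 difference -2.80 ± 0.28, adjusted p = 0.0277). The 4 adult globins, Alas2 and Aqp1 thus rose in mesenchyme, while 31 of these 34 genes did not pass. The part of red cells in the differences of other genes was not tested.

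Taking out the 40 globin and red cell genes and ranking the remaining 15235 again removes only these genes and leaves any red cell RNA in the values of the others. This gave 264 genes higher, of which 263 were among the 269, and 225 lower, all among the 228. The 6 other higher genes were among those removed, and of the 227 lower genes that remained, 2 lost the call.

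**Figure D4:**
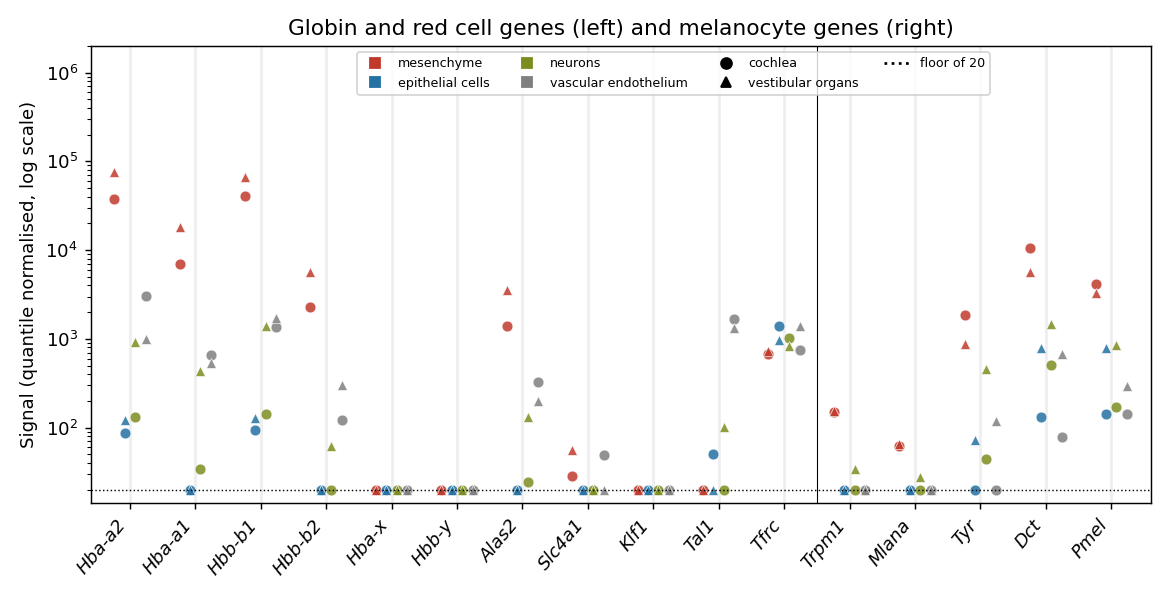
Signal (vertical log axis, floor of 20 dotted) of globin and red cell genes, left of the line, and of melanocyte genes, right of it, 1 point per library with the colours and shapes given in the key. The 4 adult globins and Alas2 are highest in both mesenchyme libraries while Hba-x, Hbb-y and Klf1 stay at the floor, and Trpm1, Mlana, Tyr, Dct and Pmel are also highest in mesenchyme.

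Cochlear and vestibular mesenchyme differed more than 4-fold in 264 genes, 127 higher in the cochlea and 137 in the vestibular organs. With 1 library of each, these differences have no replicate and no test. Among the 1165 genes above all 6 other libraries, 15 and 19 differed by as much. Zic1, a zinc finger factor of dorsal neural tube and mesenchyme, had 214.5 and 4165 in cochlear and vestibular mesenchyme, and Zic4 had 35.4 and 912. Zic2, given above, and Zic5, with 2450 and 2463, were similar in both. Outside mesenchyme the first pair were at most 396 for Zic1 and 89.9 for Zic4, both in vestibular neurons. Rbp4, the plasma retinol carrier, had 33.5 and 571 and the floor in the other 6 libraries, and Lama1, a laminin chain, had 114 and 1788. Coch and Wif1, above, followed the same order.

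Cochlear mesenchyme was the higher one for other genes. Mme, the endopeptidase neprilysin, had 27503 and 2584, and in the cochlea no other library exceeded 3840.4. Nov, a matricellular protein now named Ccn3, had 22463 and 2594 and lay above all 6 others in both organs, with 91 to 685 in those. Foxf2, a forkhead factor, had 3744 and 453, and in the vestibule it was below endothelium, at 1168. Tenascin C, Tnc, had 30366 and 4319.5, and fibronectin, Fn1, had 42828 and 8642, so both matrix genes were the highest of the cochlear libraries but not of the vestibular ones. Of the aldehyde dehydrogenases, Aldh1a7 had 1191 and 103.5 and Aldh1a1 had 1814 and 634. Cytl1, a cytokine-like gene of cartilage, had 2621 and 378, and Ebf2, an early B-cell factor family member, had 2352 and 465. For Aldh1a1 the epithelial libraries ran the other way, with 1597 and 10628. Between the organs, 167 genes had mesenchyme as the highest cochlear and the lowest vestibular library, and 452 the reverse.

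**Figure D5:**
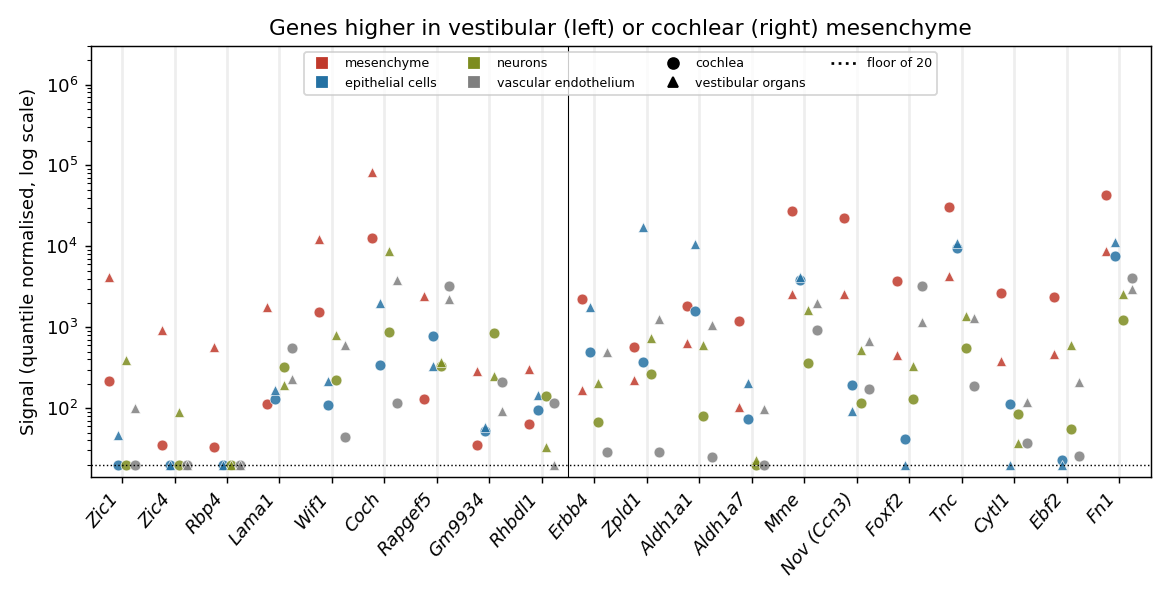
Signal (vertical log axis, floor of 20 dotted) of genes higher in vestibular mesenchyme, left of the line, and in cochlear mesenchyme, right of it, 1 point per library with the colours and shapes given in the key. Among the mesenchyme points (red), Zic1 is 214.5 in the cochlea and 4165 in the vestibular organs, and Mme is 27503 and 2584.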

How the data were processed

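mRNA-seq libraries were made from sorted cells of newborn mouse inner ears, 1 library for each of 4 cell types in the cochlea and in the vestibular organs. TopHat 1.0.0 and GRCm38 are listed as aligner and genome build in the submitters' processing notes. The deposited values are a gene signal that the authors quantile normalised, so that the sorted values are identical in all 8 libraries, with 2058 genes at the floor of 20 in each and a median of 374.4. Because of this normalisation, differences in total RNA or depth are removed, ties share a value, and a gene near the floor cannot fall further. No label or method states whether the signal was divided by gene length, and depth is unknown. The mean column was read as the authors' mean and not used, and neither was a column of the authors' cluster assignments.

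Log2 signal of all 15275 genes was fitted in limma 3.58.1 (R 4.3.3) with cell type and organ as additive terms, an empirical Bayes trend and 3 residual degrees of freedom, two-sided, with Benjamini-Hochberg adjustment at 0.05. Nothing in the labels says how many animals gave each library. The p-values therefore measure the spread between these libraries left after the cell type and organ terms. A shift between organs shared by all cell types is removed, so this spread is how far cell type differences varied between organs. On simulated data with 50 changed genes for each size, the fit called 5, 11, 19 and 28 at log2 changes of 1, 2, 3 and 4, with 1 false call. The simulated noise was normal and independent around 1 mean per gene, without organ effect, floor or ties, and all other genes were unchanged. These numbers therefore do not give the error or the power of the calls in the real libraries. Gaps were the distance between the mesenchyme libraries and the nearest of the other 6. Gene IDs were matched to GENCODE vM21 (15030 found), 20 symbols that a spreadsheet had turned into dates were restored from it, and upstream windows were read from RefSeq (GRCm38.p6). Scripts ran in Python 3.11.15 with pandas 2.3.3.

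Genes were named by rule: the markers and antigens, the 12 largest gaps and 10 largest called differences each way, in each list the first 3 members, the 4 largest, the 2 smallest and the 2 most different between organs, the globins and 6 red cell genes, the highest signals, and the 5 genes most in favour of each organ. Further list members, Zic5 among them, were named after their values were seen. The members and lists were chosen with earlier results of these data known. The alternatives were a pseudocount of 1, the floor subtracted, a filter at a signal of 100, no trend, no organ term, median-ratio scaling, calls in all 3 pairwise comparisons, no globin or red cell genes, and fits without single or doubted libraries. A few genes that the rule selects are not reported here.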

Additional observations from a re-analysis of the deposited data

Results flagged for a closer look

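For 6 of the genes named in the text, the mesenchyme was the highest of the 4 libraries in 1 organ and the lowest in the other. Genes were named partly for a large difference between organs, so these 6 do not represent all genes. With 1 library per cell type and organ the difference between organs was not tested. Each value is the log2 difference from the mean of the other 3 libraries in the cochlea minus that in the vestibular organs.

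Reversals in favour of the cochlea were found for Erbb4, a neuregulin receptor, at 6.287, with mesenchyme signals of 2258 and 165.5 in the cochlea and the vestibular organs, and for Zpld1, a zona pellucida domain gene of the vestibular cupula, at 5.52, with 573 and 223. In Zpld1 the vestibular epithelial library had 17309 and the cochlear one 367. Reversals in favour of the vestibular organs were found for Rapgef5, a Rap guanine nucleotide exchange factor, at -4.771, with 128 and 2413, for Lama1, the laminin alpha 1 chain, at -4.526, with 114 and 1788, for Gm9934 at -3.988, with 34.9 and 289, and for Rhbdl1, a rhomboid protease, at -3.569, with 64.4 and 302.5. Across all genes the cochlea was favoured in this way by 167 and the vestibular organs by 452. Without the vestibular neuron and vestibular endothelium libraries, a setting chosen after seeing the data, the value was 8.297 for Zpld1 and -1.915 for Rhbdl1, and the other 4 moved by less than 1.5 times.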

How the results depend on the processing

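The signs of all 497 calls held in every alternative fit that included the gene, and the counts moved. Genes higher in mesenchyme numbered 613 with the filter at 100, which tested 13355 genes, 482 with median-ratio scaling, 106 when a call was needed in all 3 pairwise comparisons and 0 without the vestibular neuron and vestibular endothelium libraries, which left 1 residual degree of freedom and 3930 genes at an unadjusted p under 0.05. Genes lower numbered 492, 412, 15 and 0 in those settings, and 376 with no organ term. Of the 269 higher genes, 238 were shared with the filter, 263 with the scaling and 185 with the fit after subtracting the floor, which called 243 higher and 281 lower. Of the 228 lower genes, 163, 202 and 164 were shared. Leaving out 1 library gave 0 to 243 higher and 0 to 383 lower, 1259 to 2142 genes above all others and 692 to 1294 below. Without the vestibular neuron and vestibular endothelium libraries 975 genes were below, and 2281 instead of 1520 were highest in both organs, a setting chosen for that count after seeing the data. In the same setting 24 instead of 18 transcription factors and 15 instead of 12 elastic fibre and matrix genes lay above the other libraries. The count over all 15275 genes there was 1546 instead of 1165. Counts of genes above, below or highest cannot fall when libraries are left out, so the direction of these changes was fixed in advance. Elsewhere the cause of a moved count was not tested. Among named genes 2 uncalled differences changed sign. Col4a1 ranged from -0.9935 to 0.2362 and Rgs5 from -0.07682 to 3.12 as single libraries were left out. Over the other combinations of 132 named genes and settings, 1457 kept their side of the threshold, 570 lost the call and 61 gained it. Of these gains, 28 came with the filter at 100 and 17 with median-ratio scaling. Otor, Lox, Dct, Pmel, Bgn, Lamc3, Dio2 and Col1a2 gained it in both settings. The labels carry no replicate numbers, and the organ term already pairs the libraries of an organ. Unknown depth and the floor limit what can be said of weak genes, for which a difference from the floor is a lower bound.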
